A study of Rattus norvegicus with 6 samples.

Results

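The miR-219 and miR-338 genes give 8 mature miRNA rows in this series, of 1289 rows in all and 584 that carry a known rat miRNA name. They were taken by name: every arm and copy of miR-219a, miR-219b, miR-338 and miR-3065, the last of which is annotated on the strand opposite miR-338, as miR-219b is opposite miR-219a-2. Small RNA was sequenced in 6 libraries of PC12, a cell line from a rat adrenal pheochromocytoma, a tumour of chromaffin cells. There are 3 libraries in a group that the labels call EN and 3 in a group called EC. All 6 share the line, the Trizol extraction and the TruSeq library kit. The labels spell out neither abbreviation and state no agent, dose or time, and the title of the series concerns peripheral nerve repair by exosomes of endothelial cells engineered with Netrin-1. Separate cultures are not stated for the replicates, and a p-value here reflects the spread among these libraries, which may be technical.

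MiR-219 and miR-338 are known from the mouse as miRNAs that accumulate when oligodendrocyte precursors leave the cell cycle and begin to make myelin. There they repress mRNAs that hold precursors back, among them those of the growth factor receptor Pdgfra and the transcription factors Sox6 and Hes5. A miRNA hairpin yields a 5p arm and a 3p arm, and an arm loaded into an Argonaute protein finds its targets mainly through its seed, bases 2 to 8. PC12 is not a glial line, so the genes are described here in a neuroendocrine cell.

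The 8 mature sequences, as RefSeq lists them on GRCr8, are shown because every result below turns on which row a short read matches; the seed is in capitals. All 8 rows matched, and the prefix rno, for the rat, is left out of the names from here on.
rno-miR-338-5p: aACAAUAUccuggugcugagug
rno-miR-338-3p: uCCAGCAUcagugauuuuguuga
rno-miR-3065-5p: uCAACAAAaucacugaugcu
rno-miR-3065-3p: uCAGCACCaggauauuguugggga
rno-miR-219b: aGAUGUCCagccacaauucucg
rno-miR-219a-1-3p: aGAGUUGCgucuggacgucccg
rno-miR-219a-5p: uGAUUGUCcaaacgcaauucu
rno-miR-219a-2-3p: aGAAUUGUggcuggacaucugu
No pair among the 8 shares a seed. Of the 693 rat mature miRNAs in that table, 1 outside the 8 shares a seed with any of them: miR-7a-1-3p has that of miR-3065-5p, and it is not among the rows analysed here. The members are therefore 8 separate seeds from few genes, not 1 targeting family.

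MiR-338 lies on chromosome 10, minus strand, within the span of Aatk, a kinase gene of the nervous system, and miR-3065 covers the same bases on the plus strand. MiR-219a-2 lies on chromosome 3, minus strand, within the span of Cercam, with miR-219b on the plus strand. MiR-219a-1 is a separate gene on chromosome 20 between Hsd17b8 and Ring1. The miR-338 and miR-219a-2 hairpins are given with their mature arms in capitals, since the arms of miR-338 are set against each other below.
miR-338 hairpin: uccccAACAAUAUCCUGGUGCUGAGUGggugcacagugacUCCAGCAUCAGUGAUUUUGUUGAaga
miR-219a-2 hairpin: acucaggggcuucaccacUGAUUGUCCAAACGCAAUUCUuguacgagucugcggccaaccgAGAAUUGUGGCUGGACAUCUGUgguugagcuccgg
The sequence of miR-219a-5p is also present, base for base, in the miR-219a-1 hairpin. Its reads come from either gene, while miR-219a-1-3p and miR-219a-2-3p belong to 1 gene each.

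The opposite-strand rows are close to perfect complements of each other. In the next lines the complementary stretch is in capitals.
miR-338-3p: uccAGCAUCAGUGAUUUUGUUGA
miR-3065-5p: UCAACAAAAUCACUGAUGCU
miR-338-5p: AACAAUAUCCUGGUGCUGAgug
miR-3065-3p: UCAGCACCAGGAUAUUGUUgggga
miR-219a-2-3p: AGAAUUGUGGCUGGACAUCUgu
miR-219b: AGAUGUCCAGCCACAAUUCUcg
MiR-3065-5p is complementary to miR-338-3p along its whole length of 20 bases, miR-3065-3p to miR-338-5p over 19 bases, and miR-219b to miR-219a-2-3p over 20 bases. How the authors' counting treated strand is not stated in the sources used here. Reads of such a pair can be told apart by strand alone, so each locus is also given as a sum. The sum does not depend on the strand to which a read was assigned, provided that each read was counted once. That is not stated either.

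The EN libraries held 5371351, 4521694 and 4553436 miRNA counts and the EC libraries 6433167, 6153582 and 6554639. Levels below are CPM, counts scaled to a common miRNA total after TMM factors. Mature rows differ little in length, 20 to 24 bases, so CPM was used without a length term. How evenly different sequences entered the libraries was not measured, so an order of rows by CPM is an order of counts. Changes are log2 fold changes of EN over EC from edgeR's quasi-likelihood test over all 628 rows that passed the filter on low counts, with p-values adjusted by Benjamini-Hochberg over those rows. Of marker miRNAs, the neuroendocrine miR-7a-5p stood at 1343 ± 131 CPM in EN and 1055 ± 80.2 CPM in EC (SD, n = 3 each), and miR-375-3p at 2.75 ± 0.46 and 2.65 ± 0.61 CPM. Of 4 tested neuroendocrine markers none passed, 2 had positive and 2 negative log2 fold changes, and the median was -0.37, with miR-96-5p at -0.79 (SE 0.36) and miR-183-5p at -1.60 (SE 1.53). Neuronal miR-124-3p was near 0, at 0.56 ± 0.47 CPM in EN and 0.42 ± 0.34 CPM in EC, and neuronal miR-129-5p was at 4105 ± 296 and 4132 ± 288 CPM. Of 4 tested neuronal markers 1 was called, where 2.07 percent of all rows tested were called higher and 1.91 percent lower. It was miR-128-3p, which rose to 1162 ± 38.9 CPM in EN, against 719 ± 30.8 CPM in EC (log2 fold change 0.69, edgeR adjusted p = 0.0177). MiR-9a-5p was at -0.40 (SE 0.15) and did not pass. Neither did miR-218a-5p, the most abundant of the 4, at 0.19 (SE 0.13, edgeR adjusted p = 0.448). MiR-137-3p had 2 counts in EN replicate 1 and 0 in every other library. With so few markers, nothing particular to the neuroendocrine or neuronal list is read from these counts.

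MiR-338-3p, the arm studied in oligodendrocytes, was lower in EN, and miR-219b was higher in EN. The other 4 tested rows did not pass: miR-338-5p, miR-3065-5p, miR-219a-1-3p and miR-219a-5p. MiR-3065-3p and miR-219a-2-3p had too few counts to be tested. So 1 member was called higher and 1 lower, where 2.07 percent of all rows tested were called higher and 1.91 percent lower. A member that passed the filter had enough counts in at least 3 libraries, and these counts describe the 6 tested rows alone. In such bulk libraries, fewer cells with a miRNA and less of it per cell cannot be told apart.

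Within the miR-338 hairpin the 5p arm had by far the more counts. MiR-338-5p stood at 749, 850 and 751 CPM in the EN libraries, against 863, 913 and 945 CPM in the EC libraries. All 3 EN values lay below all 3 EC values, with EN replicate 2 close to the lowest EC value. Its log2 fold change of -0.21 (SE 0.11) did not pass edgeR's test (adjusted p = 0.304). It ranked at place 81 of the 584 known rows by mean level.

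MiR-338-3p was found at 113.8, 80.7 and 107.1 CPM in the EN libraries, against 195.5, 174.5 and 173.6 CPM in the EC libraries. EN replicate 2 was the lowest library, and no EN value reached the EC range. The arm fell to 100.5 ± 17.5 CPM in EN, against 181.2 ± 12.4 CPM in EC (SD, n = 3 each), a log2 fold change of -0.85 (SE 0.17) with an edgeR adjusted p of 0.0471. Over all rows tested the median log2 fold change was 0.02. The groups did not overlap, with EN below EC, in 14.6 percent of rows tested and, with EN above EC, in 15.0 percent. The call is close to the threshold: it was kept without EN replicate 1 (adjusted p = 0.0474) and lost without EN replicate 2 (0.117), EN replicate 3 (0.148), EC replicate 1 (0.137), EC replicate 2 (0.0592) or EC replicate 3 (0.131).

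MiR-3065-5p, from the opposite strand, had 15.7, 10.7 and 17.7 CPM in EN, against 25.2, 24.4 and 23.2 CPM in EC. As for miR-338-3p, the EN values lay below the EC values and EN replicate 2 was the lowest. The log2 fold change was -0.72 (SE 0.21), and edgeR's adjusted p of 0.0924 did not pass. MiR-3065-3p had 1, 0 and 1 counts in the EN libraries, against 2, 1 and 1 counts in the EC libraries. At these counts no difference is detectable: 3 counts, the most that a count of 0 allows, are 0.559 to 0.664 CPM of an EN library and 0.458 to 0.488 CPM of an EC library.

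**Figure D1:**
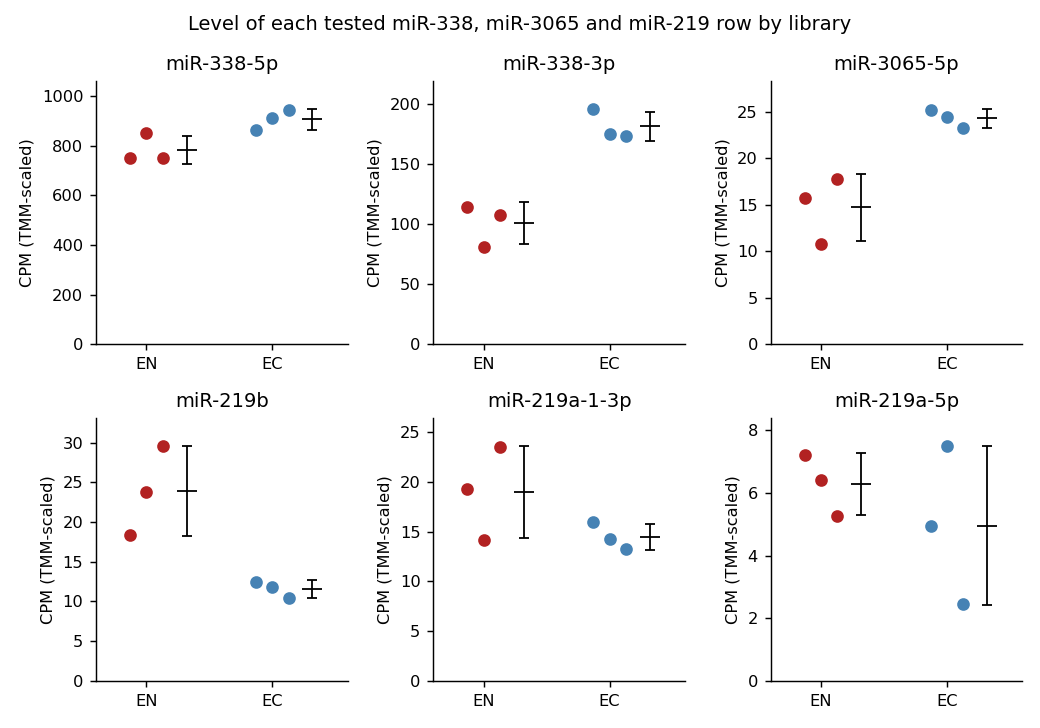
Level of each tested row in every library (points; y axis, TMM-scaled CPM from 0), with EN in red to the left of EC in blue, and mean ± SD of 3 libraries beside each group. MiR-338-3p lies at 80.7 to 113.8 CPM in EN and at 173.6 to 195.5 CPM in EC, and miR-219b at 18.3 to 29.6 CPM in EN and 10.4 to 12.5 CPM in EC.

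The rows of the miR-338 locus were then summed. The sum was 879, 942 and 876 CPM in the EN libraries, against 1084, 1112 and 1142 CPM in the EC libraries. Every EN value was below every EC value, and the spread within groups was small. The summed level was 899 ± 37.3 CPM in EN and 1112 ± 28.8 CPM in EC (SD, n = 3 each). Its log2 fold change of -0.29 (SE 0.10) did not pass edgeR's test with the sum in place of its rows (adjusted p = 0.149), where 4.47 percent of 626 rows were called. Because miR-338-5p takes most of the counts, the sum follows that arm. The sum of miR-338-3p and miR-338-5p alone had a log2 fold change of -0.28 (SE 0.10, adjusted p = 0.163), and that of both miR-3065 rows -0.72 (SE 0.21, adjusted p = 0.0952), both by edgeR and neither past the threshold.

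The arms of miR-338 can be set against each other within a library, where the scaling of libraries has no part. MiR-338-3p made up 13.2, 8.67 and 12.5 percent of the miR-338 counts in the EN libraries, against 18.5, 16.1 and 15.5 percent in the EC libraries. The lowest share, in EN replicate 2, had a 95 percent Wilson interval of 7.84 to 9.57 percent, and the highest, in EC replicate 1, one of 17.6 to 19.4 percent; these intervals cover counting error only. The mean was 11.4 ± 2.43 percent in EN and 16.7 ± 1.57 percent in EC (SD, n = 3 each), a difference of -5.24 points. The groups did not overlap, and an exact permutation test, two-sided, gave p = 0.1, the smallest that 3 against 3 libraries allow. Per library, miR-338-5p had on average 8.04 times the counts of miR-338-3p in EN and 5.03 times in EC. EN replicate 2, with the lowest 3p share, raised the EN average.

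A shift of this kind was common. Among 92 known miRNAs with a mean of at least 20 counts in both arms, the 3p share did not overlap between groups in 30.4 percent, and it lay below in EN in 15.2 percent. The median difference over the 92 was 0.03 points. The difference of miR-338 was the 11th largest fall in 3p share. The 5p arm had the more counts in EC in 63 of the 92.

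The opposite-strand pairs behaved differently on each side of the hairpin. MiR-3065-5p took 12.1, 11.8 and 14.2 percent of the counts of miR-3065-5p and miR-338-3p together in the EN libraries, against 11.4, 12.3 and 11.8 percent in the EC libraries. The groups overlapped, with means of 12.7 ± 1.32 percent in EN and 11.8 ± 0.44 percent in EC (SD, n = 3 each) and p = 0.5 by exact permutation, two-sided. The Wilson interval of the lowest share, in EC replicate 1, was 9.86 to 13.2 percent, and that of the highest, in EN replicate 3, 11.6 to 17.3 percent. These rows kept a similar ratio in libraries where the level of miR-338-3p ranged from 80.7 to 195.5 CPM. On the other side, miR-3065-3p took between 0 and 0.0358 percent of the counts of miR-3065-3p and miR-338-5p together. The upper Wilson limit of that share was at most 0.165 percent in any library.

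**Figure D2:**
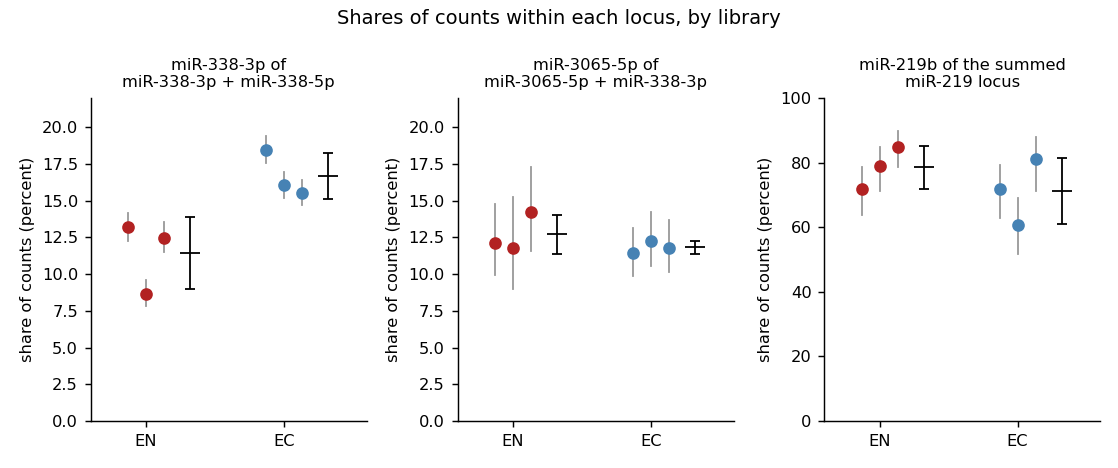
Share of counts in percent (y axis from 0) of miR-338-3p among both miR-338 arms (left), of miR-3065-5p among itself and miR-338-3p (middle) and of miR-219b in the summed miR-219 locus (right), for EN in red and EC in blue. Points are libraries with 95 percent Wilson intervals in grey and bars are mean ± SD of 3 libraries; the groups stand apart in the left panel alone.

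Of the miR-219 rows, miR-219b, the strand opposite miR-219a-2, had the largest log2 fold change. It stood at 18.3, 23.8 and 29.6 CPM in the EN libraries, against 12.5, 11.8 and 10.4 CPM in the EC libraries. The EN libraries were all above the EC libraries and spread more widely. In counts these were 99, 104 and 135 reads in EN, against 81, 74 and 68 reads in EC, from the shallower libraries in EN. The level rose to 23.9 ± 5.63 CPM in EN, against 11.6 ± 1.08 CPM in EC (SD, n = 3 each), a log2 fold change of 1.04 (SE 0.22) with an edgeR adjusted p of 0.0471. This call was also near the threshold: it was kept without EN replicate 1 (adjusted p = 0.0330) and lost without EN replicate 2 (0.117), EN replicate 3 (0.161), EC replicate 1 (0.113), EC replicate 2 (0.0592) or EC replicate 3 (0.131). By limma-voom it was not called either (adjusted p = 0.0531).

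Its complement, miR-219a-2-3p, the arm that the miR-219a-2 hairpin would give on that side, had 0 counts in all 3 EN libraries and 0, 1 and 0 counts in the EC libraries. All but 1 of the reads on this stretch were thus assigned to miR-219b. MiR-219a-5p, the arm with the known role in oligodendrocytes, was scarce in the counts assigned to it: 7.22, 6.40 and 5.26 CPM in EN, against 4.94, 7.51 and 2.44 CPM in EC. Both groups overlapped, with 24 to 39 reads in the EN libraries and 16 to 47 in the EC libraries. The log2 fold change was 0.34 (SE 0.41, edgeR adjusted p = 0.678), and it was 0.04 without EC replicate 3 and 0.79 without EC replicate 2.

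MiR-219a-1-3p, which comes from the gene on chromosome 20 alone, had 19.2, 14.2 and 23.4 CPM in EN, against 15.9, 14.2 and 13.3 CPM in EC. The groups overlapped through EN replicate 2. The log2 fold change was 0.39 (SE 0.22, edgeR adjusted p = 0.345), and it was 0.21 without EN replicate 3 and 0.59 without EN replicate 2, without passing in either. It had more counts than miR-219a-5p, its partner arm, in every library. The sequence of miR-219a-5p also lies in the miR-219a-2 hairpin, and how multiply matching reads were counted is not stated. The order of these arms is therefore an order of assigned counts only.

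Summed over miR-219a-5p, miR-219a-2-3p and miR-219b, the miR-219 locus had 25.5, 30.2 and 34.8 CPM in the EN libraries, against 17.5, 19.5 and 12.8 CPM in the EC libraries. The EN values were all above the EC values. The means were 30.2 ± 4.65 CPM in EN and 16.6 ± 3.41 CPM in EC (SD, n = 3 each), with a log2 fold change of 0.86 (SE 0.21). EdgeR's adjusted p of 0.0610 did not pass, where 3.51 percent of 627 rows were called. Without miR-219a-5p, whose reads may come from the other gene, the sum had a log2 fold change of 1.04 and passed (adjusted p = 0.0485), and with miR-219a-1-3p added it had one of 0.66 and did not (adjusted p = 0.0867). MiR-219b made up 71.7, 78.8 and 84.9 percent of the locus in EN and 71.7, 60.7 and 81.0 percent in EC, with p = 0.4 by exact permutation, two-sided. The Wilson intervals of the shares ran from 51.8 percent, the lower bound in EC replicate 2, to 89.6 percent, the upper bound in EN replicate 3.

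**Figure D3:**
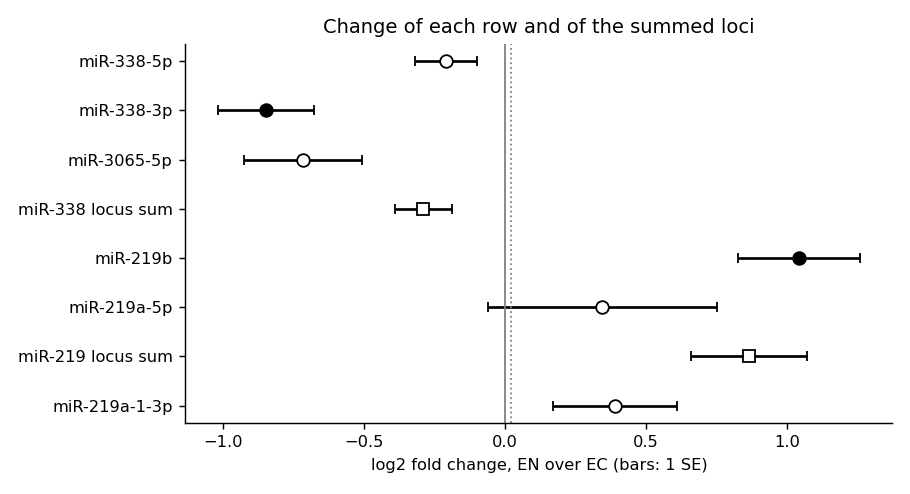
Log2 fold change of EN over EC (x axis; bars, 1 SE) for each tested row (circles) and for the summed loci (squares), filled where edgeR's adjusted p is under 0.05; the dotted line is the median of all rows tested, 0.02. MiR-338-3p at -0.85 and miR-219b at 1.04 are filled, and neither locus sum is.

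The order of levels differed between the groups among the scarce rows. In EN, miR-338-5p and miR-338-3p were followed by miR-219b at 23.9 CPM, miR-219a-1-3p at 19.0 CPM, miR-3065-5p at 14.7 CPM and miR-219a-5p at 6.29 CPM. There the ranges of miR-219b and miR-219a-1-3p overlapped, as did those of miR-219a-1-3p and miR-3065-5p. In EC, the order after miR-338 was miR-3065-5p at 24.3 CPM, miR-219a-1-3p at 14.5 CPM, miR-219b at 11.6 CPM and miR-219a-5p at 4.96 CPM, and no neighbours in it overlapped. By mean level over all libraries the scarce 4 held places 249 to 307 of the known rows, whose median level was 7.02 CPM.

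The library total matters to these results. MiRNA counts made up 25.0 to 26.9 percent of the total implied by the authors' RPM values in EN libraries and 30.9 to 32.6 percent in EC libraries. With that total as divisor, the median log2 fold change of all rows was -0.30, and 14.2 percent of rows were called lower and 2.1 percent higher. There miR-338-3p was at -1.17 (adjusted p = 0.0125), miR-3065-5p at -1.04 (0.0261), miR-338-5p at -0.54 (0.0224) and the miR-338 sum at -0.64 (0.0136, in a fit that called 13.9 percent of rows lower), all called lower by edgeR, and miR-219b at 0.71 was not called (0.0600). The miR-219 sum was at 0.52 (0.135), miR-219a-1-3p at 0.06 (0.891) and miR-219a-5p at 0.0083 (0.990), none of them called. Each of these rows and sums lay to the same side of the median of all rows as with TMM scaling. The sources used here do not say which reads the implied total holds. By DESeq2, which called 18.5 percent of the rows with an adjusted p, miR-3065-5p (adjusted p = 0.0493) also passed, as did the miR-338 sum (0.0410, with 16.5 percent of rows called) and the miR-219 sum (0.0131, with 18.5 percent called).

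**Figure D4:**
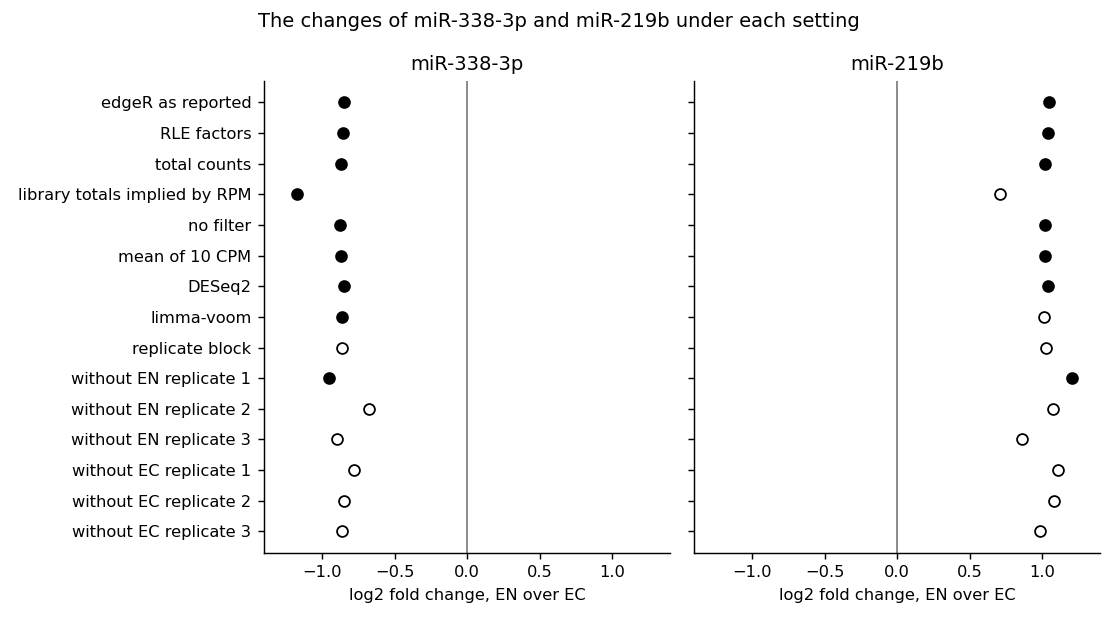
Log2 fold change of EN over EC (x axis) of miR-338-3p (left) and miR-219b (right) under each setting of the analysis (y axis), filled where the adjusted p is under 0.05. MiR-338-3p lies between -1.17 and -0.68 and miR-219b between 0.71 and 1.20, and most settings that leave out a library have open points.

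Other miRNAs known from glial differentiation were taken from lists chosen by function. Of 23 miRNAs of the oligodendrocyte lineage, 21 were tested, of which 1 rose and 1 fell, where 2.07 percent of all rows were called higher and 1.91 percent lower. With so short a list these counts do not set it apart. MiR-23a-3p, which in mouse oligodendrocytes represses lamin B1, rose to 42958 ± 2386 CPM in EN, against 30546 ± 2249 CPM in EC (SD, n = 3 each; edgeR adjusted p = 0.0256). MiR-32-5p fell to 137.9 ± 20.1 CPM in EN, against 272.2 ± 29.1 CPM in EC, a log2 fold change of -0.98 (SE 0.16, edgeR adjusted p = 0.0228). The most abundant of the others had log2 fold changes of 0.20 (SE 0.24) for miR-204-5p, -0.06 (SE 0.10) for miR-27a-3p, 0.22 (SE 0.10) for miR-146a-5p and 0.11 (SE 0.10) for miR-92a-3p. The median of the list was 0.11, against 0.02 for all rows tested.

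Schwann cells, which make myelin in peripheral nerve, had a list of 17 miRNAs, of which 11 were tested. MiR-222-3p was the 1 that rose, to 77347 ± 3539 CPM in EN, against 55273 ± 1797 CPM in EC (SD, n = 3 each; edgeR adjusted p = 0.0167), and 10 did not pass. This count too is set against 2.07 percent of all rows called higher and 1.91 percent lower, and nothing particular to the list is read from it. The most abundant of these had log2 fold changes of 0.09 (SE 0.10) for miR-21-5p, 0.20 (SE 0.24) for miR-204-5p, 0.03 (SE 0.08) for miR-34a-5p and -0.36 (SE 0.12) for miR-29a-3p. The median of the list was 0.09. Both lists share miR-138-5p, miR-146a-5p, miR-9a-5p and miR-204-5p.

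Markers of other cell types were read beside these results. Summed, 6 blood cell miRNAs had 156.4 to 178.6 CPM in EN libraries and 94.5 to 127.1 CPM in EC libraries, mostly miR-150-5p. MiR-150-5p was at 141.2 ± 16.9 CPM in EN and 99.2 ± 18.1 CPM in EC (SD, n = 3 each). It did not pass edgeR's test (adjusted p = 0.151). MiR-144-3p and miR-223-3p had 3 counts or fewer in every library, with higher means in EN. MiR-142-3p and miR-142-5p, which were too scarce to be tested, had lower means in EN. They were at 1.111 and 0.225 CPM in EN, against 1.602 and 0.825 CPM in EC. For miR-142-5p the groups did not overlap, at 0, 2 and 1 counts in EN and 6, 3 and 7 counts in EC. Of the rows that were tested, 14.6 percent also had EN below EC without overlap. The erythroid miR-451-5p, 1 of 2 blood cell markers tested, rose to 23.3 ± 6.26 CPM in EN, against 8.10 ± 2.60 CPM in EC, a log2 fold change of 1.52 (SE 0.31, edgeR adjusted p = 0.0471). Together both endothelial miR-126a arms had 1086 to 1229 CPM in EN and 1064 to 1144 CPM in EC, nearly all of it miR-126a-3p, whose log2 fold change was 0.07 (SE 0.11). MiR-126a-5p, 1 of 2 endothelial arms tested, fell to 33.2 ± 5.55 CPM in EN, against 60.3 ± 5.20 CPM in EC (log2 fold change -0.86, edgeR adjusted p = 0.0471). The calls of miR-451-5p and miR-126a-5p are set against 2.07 percent of all rows called higher and 1.91 percent lower. With so few markers, nothing particular to them is read from these calls. The muscle miRNAs were at 1.75 to 2.41 CPM in EN and 1.76 to 30.3 CPM in EC, the highest through 187 counts of miR-206-3p in EC replicate 1. The blood cell sum and miR-451-5p were higher in EN, as was miR-219b, while both scarce miR-142 arms had lower means in EN. MiR-126a-5p was lower, as was miR-338-3p, while miR-126a-3p, with nearly all counts of that pair, did not pass. The part of these markers in those results was not tested.

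The rows most like each locus sum over the 6 libraries were looked for among 322 rows with a mean of at least 100 counts, by Pearson's r of log2(CPM + 1). For the miR-338 locus they were miR-24-1-5p (r = 0.980), let-7d-3p (0.979), let-7i-3p (0.972), miR-28-5p (0.967) and miR-106b-5p (0.957). For the miR-219 locus they were miR-218b (r = 0.980), miR-221-5p (0.961), miR-25-3p (0.960), miR-28-3p (0.951) and miR-222-3p (0.951). In each of the 10 the groups stood apart, below EC for the first 5 and above EC for the others, so r here also carries the difference between groups. MiR-28 supplied a 5p arm to the first list and a 3p arm to the second. MiR-28-5p stood at 1043 ± 42.7 CPM in EN and 1576 ± 32.6 CPM in EC, and miR-28-3p at 140.1 ± 18.9 CPM in EN and 84.8 ± 7.30 CPM in EC (SD, n = 3 each).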

How the data were processed

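Small RNA of 6 PC12 libraries was counted by the authors. The deposited table gives whole-number read counts per mature miRNA, and RPM values, which the authors scaled to a library total larger than the miRNA counts. The authors' deposited group averages are scores that were not used. HISAT2 2.0.5 and the build Rnor 6.0 are named, per the submitters' processing notes. The counter, annotation, strand rule and treatment of multiply matching reads are details not given in the sources used here.

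Rows were filtered by filterByExpr, scaled by TMM and tested with edgeR 4.0.16 (R 4.3.3), quasi-likelihood with robust dispersion, with Benjamini-Hochberg adjustment over all rows and a threshold of 0.05. SE is the size of the log2 fold change over the root of the F statistic. Locus sums replaced their rows in the whole table. Shares were compared by two-sided exact permutation (scipy 1.17.1). Alternatives were RLE factors, total counts, totals implied by RPM, no filter, a mean of 10 CPM, DESeq2 1.42.0, limma-voom (limma 3.58.1), a replicate block and each library left out. The fits were first tested on simulated data. Names, sequences and neighbours are from RefSeq (GRCr8), whose build differs from the authors', so no coordinates are given. The members and lists were chosen with earlier results of these data known. All 8 rows are named, and of each list those past the threshold and the 4 most abundant others. Libraries held 4521694 to 6554639 counts, and replicates differed by far more than counting noise, so for all but the scarcest rows the spread between libraries sets the precision.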

Additional observations from a re-analysis of the deposited data

How the results depend on the processing

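No tested row or sum of these genes changed sign under any alternative run. MiR-338-3p was -0.86 (adjusted p = 0.113) with a replicate block and -0.95 to -0.68 without 1 library. MiR-219b was 0.71 (0.0600) with totals implied by RPM, 1.01 (0.0531) by limma-voom, 1.02 (0.156) with a replicate block and 0.86 to 1.20 without 1 library. Rows newly past the threshold were miR-338-5p at -0.54 and miR-3065-5p at -1.04 with totals implied by RPM, and miR-3065-5p at -0.72 by DESeq2 (0.0493). The miR-338 sum passed at -0.64 with totals implied by RPM and at -0.31 by DESeq2 (0.0410). The miR-219 sum passed at 0.84 without a filter (0.0314), 0.85 by DESeq2 (0.0131) and 1.04 without miR-219a-5p. Over all rows the 25 calls became 101 with totals implied by RPM, 44 without a filter, 88 by DESeq2, 2 with a replicate block and 2 to 39 without 1 library. Oligodendrocyte list calls, 2, became 4 with totals implied by RPM, 0 with a replicate block and 0 to 2 without 1 library. Schwann list calls, 1, became 4, 0 and 0 to 2 in the same settings and 2 by DESeq2. Without 1 library miR-219a-5p ranged from 0.04 to 0.79 and miR-219a-1-3p from 0.21 to 0.59. The 3p share of miR-338 differed by -6.11 to -3.85 points without 1 library. Beyond the changed divisor or fewer samples, the cause was not tested.

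Same-numbered libraries deviated together with r of 0.091, -0.036 and 0.018, against -0.124 to 0.095 for different numbers, so the numbers were not taken as pairs. For EN replicate 2, EC replicate 2 and EC replicate 3, the best correlation was with another number. Depth limits miR-3065-3p and miR-219a-2-3p, at 2 counts or fewer in any library.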
